A study of Mus musculus with 380 samples.

Results

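Il7r, Il2rb, Il2rg, Il18r1, Il18rap, Il21r, Il10ra and Ifngr1 encode chains of the receptors through which T cells receive interleukins and interferon gamma. These 8 of the 23420 genes in the deposited expression matrix were taken by name, and all 8 were present. They were followed through T cells isolated from B16F10 tumours, a transplantable mouse melanoma, as single cells and as population wells, which are libraries made from many cells. The mice were C57BL/6. One genotype is labelled as a knockout of Il27ra, a chain of the interleukin-27 receptor, and the other as wild type (WT). The 4 plates were KO-labelled CD4, WT CD4, KO-labelled CD8 and WT CD8, each with 94 single cells and 1 population well. The labels name no age, no second animal of a genotype and no cell type restriction of the knockout. The titles carry 1 code per genotype, ending in 4. The WT CD4 titles carry p2 and the others p1, with no explanation. The isolation text speaks of CD8 cells, so the CD4 lineage rests on the titles.

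Cytokine receptors of this kind are built from shared parts. The product of Il2rg, the common gamma chain, pairs with the product of Il7r to bind interleukin-7, with that of Il2rb for interleukin-2 and interleukin-15, and with that of Il21r for interleukin-21. These receptors signal through JAK kinases and STAT factors, and interleukin-7 and interleukin-15 are known for keeping resting and memory T cells alive. The chains encoded by Il18r1 (ligand binding) and Il18rap (accessory) form the interleukin-18 receptor, which signals through MyD88 and sensitises T cells to release interferon gamma. Il10ra and Ifngr1 encode the ligand-binding chains for interleukin-10 and interferon gamma. Tcf7 encodes TCF-1, a factor of naive and stem-like T cells that is low in terminal effectors, and Pdcd1 encodes PD-1, an inhibitory receptor of activated and exhausted T cells.

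Levels are in FPKM, a read measure corrected for transcript length and library size, and detection means a level above 1. Cells with fewer than 1000 detected genes were left out. This kept 73 KO-labelled CD4, 79 WT CD4, 80 KO-labelled CD8 and 72 WT CD8 cells of the 94 on each plate. The median number of genes detected per kept cell ran between 2045 and 3167.5 over the plates and was highest in WT CD8. Cd4 was detected in 84.9% and 89.9% of KO-labelled and WT CD4 cells, against 0% (which allows up to 3.75%) and 5.56% of KO-labelled and WT CD8 cells. Cd8a was detected in 4.11% and 5.06% of KO-labelled and WT CD4 cells, against 90% and 84.7% of the CD8 cells of the same labels. The targeted gene, Il27ra, was detected in 47.9% of KO-labelled against 43.04% of WT CD4 cells, and in 61.25% of KO-labelled against 65.3% of WT CD8 cells. Its detection in single cells thus did not separate the genotype labels. The population wells held less of it under the KO label, at 72.71 against 243.44 FPKM in CD4 and 85.26 against 157.02 FPKM in CD8. Which part of the gene was deleted is not given in the sources used here. Every group is 1 plate, so genotype cannot be told apart from plate or animal, and no test was run. The intervals given are exact Clopper-Pearson 95% intervals over cells and cover counting error only. Where no cell carried a gene, the limit printed is not the bound of that interval but the share that 3 cells would make.

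Positions are those of GENCODE M21 on GRCm38, the build called mm10 in the submitters' processing notes, from the first to the last exon of each gene. Il7r spans chr15:9505788-9530176 on the minus strand and Il2rb chr15:78479256-78495271, also on the minus strand. Il18r1, at chr1:40465552-40500854, and Il18rap, at chr1:40515362-40551705, lie on the plus strand 14507 bases apart. Il21r is at chr7:125603429-125633570 (plus) and Ifngr1 at chr10:19591949-19610229 (plus). Il10ra, at chr9:45253837-45269149 (minus), holds the pseudogene Gm20612 on the other strand and the microRNA gene Mir7086 on its own. Il2rg, at chrX:101264378-101268255 (minus), lies within the same-strand gene Gm20489, so how its reads were assigned is uncertain.

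RefSeq promoter windows of GRCm38.p6, 250 bases before to 50 after a start, were found for 6 of the 8 genes, with 8 windows in all. Those of Il7r, Il18r1 and Il18rap are shown because much of the text below is on the RNA of these chains. Capitals mark matches on either strand to short core motifs of factors of T cells, chosen with the values of these data already known: CTTTGA (TCF/LEF), AGGAAG (ETS), TGTGGT (RUNX), GTAAACA (forkhead), TTCNNNGAA (STAT) and AGGTGT (T-box).
Il7r, chr15:9529827-9530126, minus strand: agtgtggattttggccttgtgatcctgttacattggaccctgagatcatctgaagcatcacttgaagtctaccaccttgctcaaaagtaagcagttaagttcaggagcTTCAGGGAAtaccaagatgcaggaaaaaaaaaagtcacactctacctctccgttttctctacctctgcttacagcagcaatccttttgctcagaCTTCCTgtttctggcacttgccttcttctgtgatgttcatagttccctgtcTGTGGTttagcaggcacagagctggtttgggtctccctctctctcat
Il18r1, chr1:40465756-40466055, plus strand: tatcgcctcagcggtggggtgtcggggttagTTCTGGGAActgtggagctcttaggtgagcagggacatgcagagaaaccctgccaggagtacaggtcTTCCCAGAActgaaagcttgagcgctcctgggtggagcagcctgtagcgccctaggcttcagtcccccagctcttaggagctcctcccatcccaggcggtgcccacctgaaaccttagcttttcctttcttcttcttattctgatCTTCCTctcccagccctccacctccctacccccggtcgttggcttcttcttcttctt
Il18rap, chr1:40515112-40515411, plus strand: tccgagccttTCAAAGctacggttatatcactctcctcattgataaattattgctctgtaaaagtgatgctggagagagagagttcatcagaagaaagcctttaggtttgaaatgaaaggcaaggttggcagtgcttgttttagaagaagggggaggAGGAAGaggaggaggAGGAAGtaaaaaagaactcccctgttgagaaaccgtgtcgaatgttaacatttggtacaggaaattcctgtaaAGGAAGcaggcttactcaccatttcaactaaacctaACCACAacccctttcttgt
The Il7r window holds STAT, ETS and RUNX matches, in this order, the ETS match beginning 48 bases before the start and the RUNX match 3 bases after it. The Il18r1 window, the most downstream of its 3, holds 2 STAT matches upstream of an ETS match that begins 7 bases before the start. Of the Il18r1 windows not shown, the one from chr1:40465371 holds only a RUNX match and the one from chr1:40465302 holds no match. The Il18rap window holds a TCF/LEF match 240 bases before the start, ETS matches at 93, 78 and 5 bases before it and a RUNX match 31 bases after it. No matches overlapped within these windows. Of 32851 promoter windows, 16.003% hold the TCF/LEF motif, 35.4% the ETS, 16.8% the RUNX, 3.65% the forkhead, 8.30% the STAT and 13.7% the T-box motif. A match is a description of letters and says nothing of binding.

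Il7r, the interleukin-7 receptor alpha chain, was present in most cells of 3 plates and in few WT CD8 cells. Among CD4 cells, 72.6% with the KO label (interval 60.9 to 82.4%) and 60.8% of WT (49.1 to 71.6%) carried it, and among CD8 cells, 67.5% with the KO label (56.1 to 77.6%) against 13.9% of WT (6.87 to 24.1%). The lowest value was 0 FPKM on every plate. In CD8 cells the median was 79.99 and the highest 1906 FPKM under the KO label, against a median of 0 and a highest value of 867 FPKM in WT. In CD4 cells the median was 144.3 and the highest 2098 FPKM under the KO label, against 30.8 and 1600.3 FPKM in WT. The plates overlapped in range, and only the step between WT CD4 and WT CD8 had intervals of the shares that lay apart among neighbours in the order of plates. The wells held 436 FPKM in KO-labelled CD4, 443 in WT CD4, 351.6 in KO-labelled CD8 and 35.9 in WT CD8, so the low plate was low in both kinds of library. In such bulk libraries, fewer cells of a type and less RNA per cell cannot be told apart. The wells also differed in RNA of macrophages and monocytes, whose 6 measured markers summed to 3331 FPKM in KO-labelled CD4, 48.4 in WT CD4, 883 in KO-labelled CD8 and 1972 in WT CD8. Its part in the well differences was not tested.

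On the scale used for all differences, the mean of log2(FPKM + 1) over kept cells, Il7r was 4.27 higher in KO-labelled than in WT CD8 cells, and 3.26 higher in the wells. Between CD4 and CD8 it was 3.57 higher in WT cells (3.59 in the wells) and 0.47 higher in KO-labelled cells. The WT CD8 plate stood apart in other ways too. All 8 cell cycle genes followed were at least 1 lower under the KO label (-2.84 to -1.93), and at least 4 of the 8 were detected in 7.5% of KO-labelled against 40.3% of WT CD8 cells, and 6 of 80 KO-labelled against 26 of 72 WT cells had more than 4000 genes. Without cycling cells the CD8 difference of Il7r was 3.73, without cells above 4000 genes 3.88, and with cells of the plates matched on genes detected 3.78. In CD4 cells the difference between the labels was 1.16 over cells and -0.03 in the wells, so the wells did not show it.

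**Figure D1:**
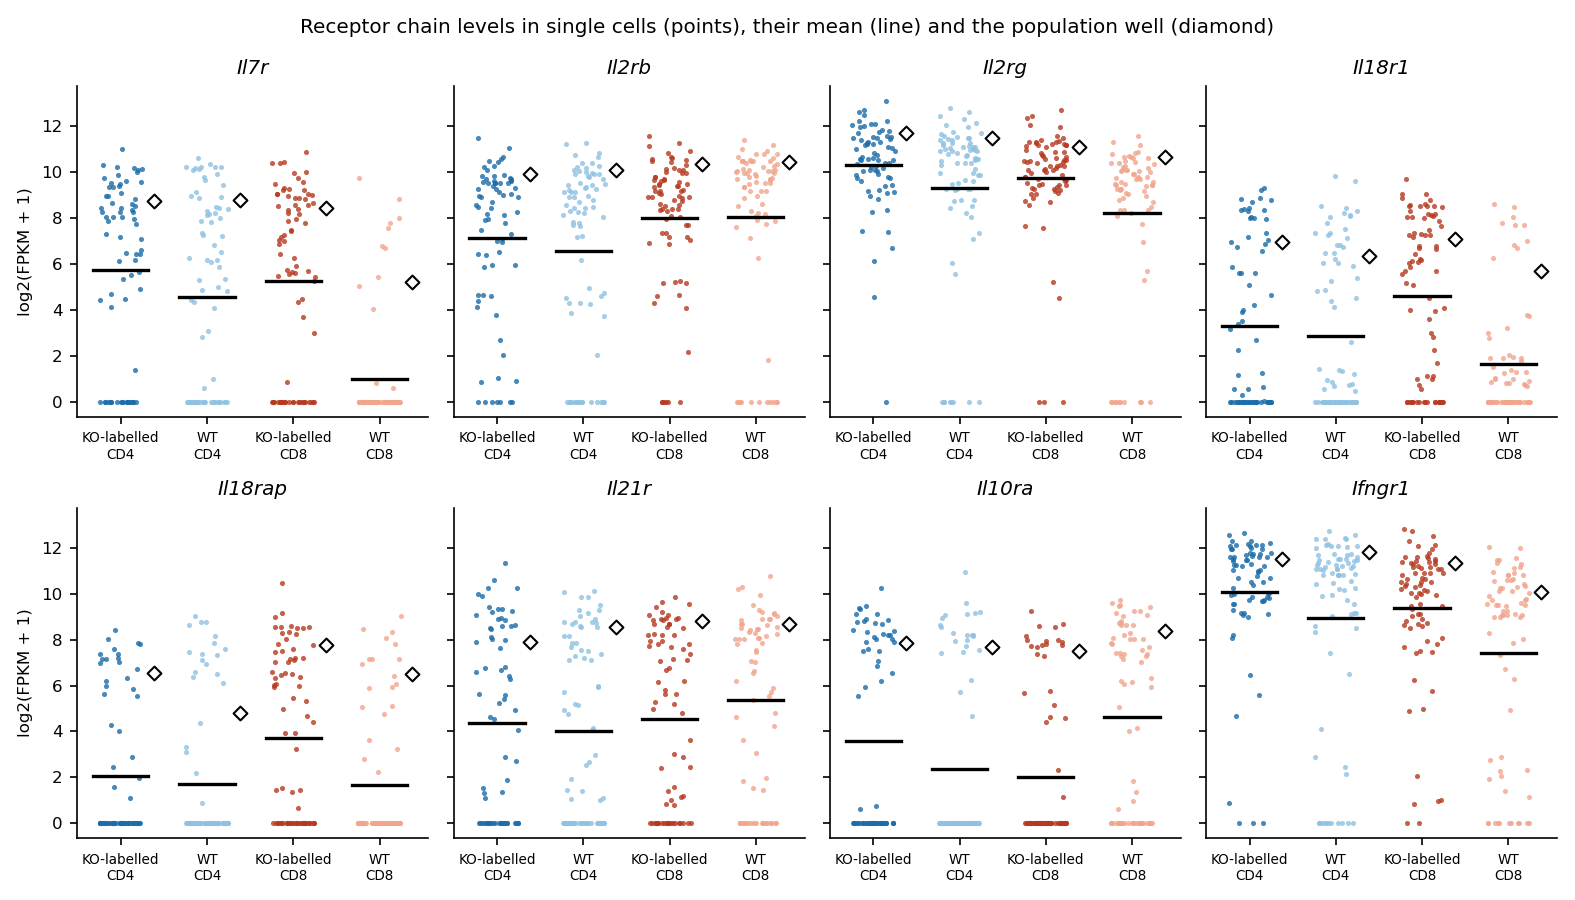
Levels of the 8 chains as log2(FPKM + 1) in each kept cell (points), with the mean over cells (line) and the population well (diamond), for KO-labelled CD4, WT CD4, KO-labelled CD8 and WT CD8. Il7r is at or near 0 in most WT CD8 cells, of which 10 of 72 are above FPKM 1, while every chain has cells at 0 on every plate.

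Il18r1, the ligand-binding chain of the interleukin-18 receptor, was most frequent in KO-labelled CD8 cells. In the CD4 lineage 52.1% of KO-labelled (40.04 to 63.9%) and 45.6% of WT cells (34.3 to 57.2%) carried it, and in the CD8 lineage 72.5% of KO-labelled (61.4 to 81.9%) against 37.5% of WT cells (26.4 to 49.7%). Many values in WT CD8 cells were low: the median among detected cells was 127.5 FPKM under the KO label against 6.92 FPKM in WT. Above FPKM 10 the shares were 62.5% of KO-labelled against 16.7% of WT CD8 cells. Over all kept CD8 cells, Il18r1 ran between 0 and 848 FPKM with a median of 54.9 under the KO label, and between 0 and 391 FPKM with a median of 0.305 in WT. The CD8 plates overlapped in range, and the difference of means was 2.98 over cells and 1.41 in the wells (137.3 against 51.1 FPKM). In CD4 cells the difference between the labels was 0.44 over cells and 0.63 in the wells (125.05 against 80.6 FPKM).

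Il18rap, the accessory chain that the interleukin-18 receptor needs to signal, had the same leading plate. It was detected in 35.6% of KO-labelled CD4, 25.3% of WT CD4, 57.5% of KO-labelled CD8 and 27.8% of WT CD8 cells. In CD8 cells its median was 14.4 and its highest value 1430 FPKM under the KO label, against 0 and 523 FPKM in WT. The difference between the CD8 plates was 2.05 over cells and 1.23 in the wells, which held 215.3 FPKM under the KO label and 91.1 FPKM in WT. In CD4 cells the difference was 0.36 over cells, while the wells, at 92.15 FPKM under the KO label and 26.6 FPKM in WT, differed by 1.76. Both chains were found together in 24.7% of KO-labelled CD4, 17.7% of WT CD4, 46.25% of KO-labelled CD8 (35.03 to 57.8%) and 13.9% of WT CD8 cells (6.87 to 24.1%). Natural killer cells also carry this receptor: at least 3 of 5 natural killer markers were found in 6.25% of KO-labelled against 2.78% of WT CD8 cells. At least 1 was found in 52.5% against 56.9%. All 5 markers were found on both plates, with a summed level of 0 to 4822 FPKM under the KO label and 0 to 1076 FPKM in WT. Of the 2 markers compared, Klre1 was 1.08 higher and Eomes lower (-1.56) under the KO label. The part of natural killer cells in the difference was not tested.

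Between lineages, the interleukin-18 receptor chains were lower in CD4 than in CD8 cells under the KO label, by a difference of -1.33 for Il18r1 and -1.67 for Il18rap. In the wells these were -0.13 and -1.22. In WT cells Il18r1 was 1.21 higher in CD4 than in CD8 cells and Il18rap 0.02. The wells gave 0.65 and -1.74 for the same pair of genes, so for Il18rap the direction turned between cells and wells. All comparisons share plates with each other, and none is independent of the rest.

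Il2rg, the common gamma chain, was detected in nearly all cells. The shares were 98.6% of KO-labelled CD4, 89.9% of WT CD4, 96.25% of KO-labelled CD8 and 86.1% of WT CD8 cells, and the medians 1522, 1508, 1195 and 717 FPKM in the same plates. The wells held 3347, 2892, 2171 and 1611 FPKM. KO-labelled minus WT, Il2rg differed by 1.53 in CD8 cells and 1.00 in CD4 cells, against 0.43 and 0.21 in the wells. Il2rb, the beta chain for interleukin-2 and interleukin-15, was detected in 87.7%, 78.5%, 92.5% and 84.7% of cells of the same plates, with medians of 363.6, 344.75, 484 and 820 FPKM. Its wells lay between 982 FPKM in KO-labelled CD4 and 1381 FPKM in WT CD8. The difference between the labels was -0.07 in CD8 cells and 0.55 in CD4 cells. Between CD4 and CD8 it was -1.48 in WT and -0.86 under the KO label, lower in CD4 in each.

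Il21r, the specific chain for interleukin-21, was carried by similar shares of cells on the 4 plates. It was detected in 63.01% of KO-labelled CD4, 60.8% of WT CD4, 67.5% of KO-labelled CD8 and 73.6% of WT CD8 cells, and the intervals of all neighbours overlapped. Its median was 23.6, 6.80, 43.3 and 132.3 FPKM in the same plates, and the wells held 240.5, 371.3, 454 and 409 FPKM. KO-labelled minus WT, Il21r was at -0.83 in CD8 cells, where the wells gave 0.15, and 0.36 in CD4 cells, where the wells gave -0.62. The direction between labels thus turned between cells and wells in both lineages. In WT cells Il21r was lower in CD4 than in CD8 by a difference of -1.37, against -0.14 in the wells.

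Il10ra, the ligand-binding chain for interleukin-10, was less frequent under the KO label in CD8 cells and more frequent in CD4 cells, and whether the lineages differ in this was not tested. In the CD4 lineage 43.8% of KO-labelled (32.2 to 55.9%) and 29.1% of WT cells (19.4 to 40.4%) carried it, and in the CD8 lineage 30% of KO-labelled (20.3 to 41.3%) against 61.1% of WT cells (48.9 to 72.4%). The median was 0 FPKM on every plate but WT CD8, where it was 70.9 FPKM. The highest value was 1220 FPKM in KO-labelled CD4, 1961 in WT CD4, 614 in KO-labelled CD8 and 847 in WT CD8, so single cells with high levels were found on every plate. The difference between the labels was -2.59 in CD8 cells (-0.89 in the wells, 181.3 against 336.01 FPKM) and 1.21 in CD4 cells (0.19 in the wells, 232.5 against 204.1 FPKM). Without cycling cells the CD8 difference was -1.36, and without cells above 4000 genes -1.09. With CD4 cells matched on genes detected, that difference was 0.66.

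Ifngr1, the ligand-binding chain for interferon gamma, was detected in 94.5% of KO-labelled CD4, 86.1% of WT CD4, 95% of KO-labelled CD8 and 84.7% of WT CD8 cells. The medians were 2046, 1882, 1269 and 661 FPKM in the same plates, and the highest values 6407, 6888, 7222 and 4220 FPKM. The wells held 2915, 3579, 2598 and 1079 FPKM, with WT CD8 lowest as in cells. The difference between the labels was 1.93 in CD8 cells (1.27 in the wells) and 1.11 in CD4 cells (-0.30 in the wells). Between lineages it was 1.53 higher in CD4 than in CD8 cells in WT (1.73 in the wells) and 0.71 under the KO label.

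**Figure D2:**
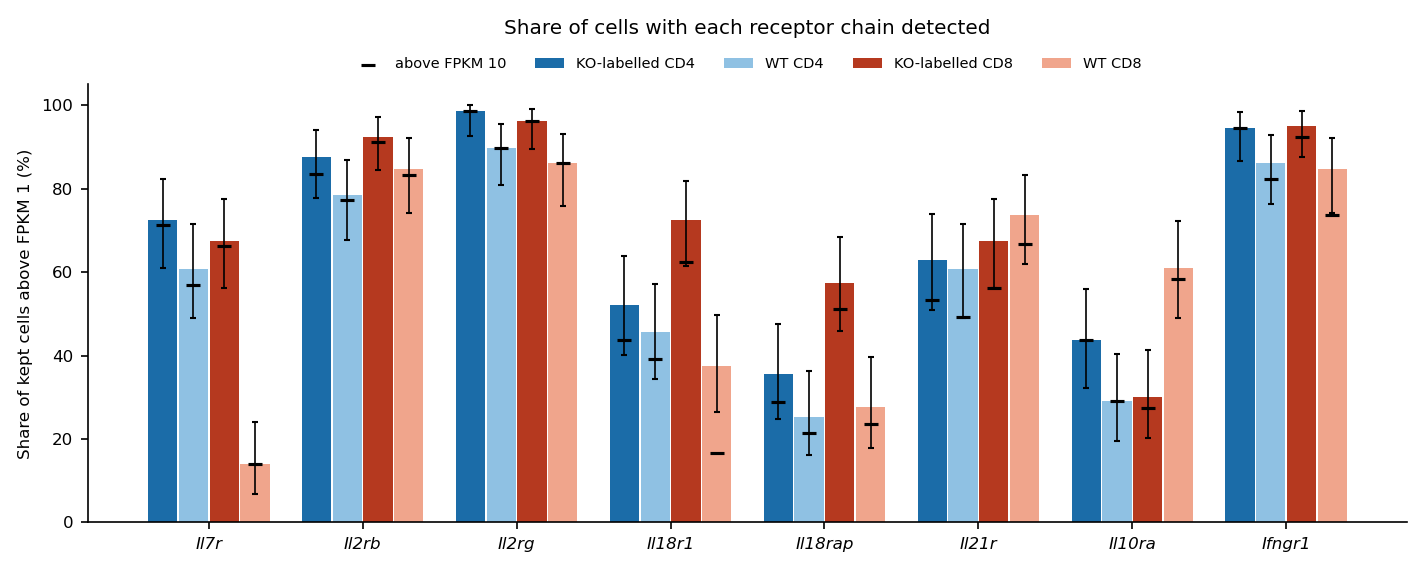
Share of kept cells above FPKM 1 for each chain and plate (bars, with exact 95% intervals over cells), and above FPKM 10 (dashes). Il7r is at 13.9% in WT CD8 against 60.8% or more on the other plates, and the dash of Il18r1 in WT CD8 stands at 16.7%, well under its bar at 37.5%.

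A difference of at least 1 on the log2 scale was used to set the chains beside all genes detected in at least 20% of the cells of 1 of the plates compared. Between KO-labelled and WT CD8 cells, 5 of the 8 chains were at least 1 higher and 1 was at least 1 lower, where 3.00% of 6599 genes were higher and 19.5% lower. The count of 5 was smaller in cells with at least 2000 genes, as given below with the other settings. The median difference of the chains was 1.73, against -0.46 for all genes. Between KO-labelled and WT CD4 cells, 4 chains were at least 1 higher and 0 lower, beside 8.75% of 4687 genes higher and 1.51% lower, and the medians were 0.77 for the chains and 0.16 for all genes. In the wells the median of the chains was 0.83 in CD8 and 0.08 in CD4, so in CD4 the wells showed no such shift. Of the 4 chains counted in CD4 cells, Il2rg lay at 1.00, just at the limit, and the count was 0 when only cells with at least 2000 genes, or all 94 cells, were used.

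Between CD4 and CD8 cells under the KO label, 1 chain was at least 1 higher and 2 were lower, beside 4.63% of 5286 genes higher and 11.1% lower. In WT cells 4 chains were at least 1 higher and 3 lower, where 2.16% of 6524 genes were higher and 37.2% lower. The count of 3 lower in 8 is near that background, and it was 0 without cells above 4000 genes. The median of the chains was 0.15 under the KO label and 0.56 in WT, against -0.21 and -0.76 for all genes.

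**Figure D3:**
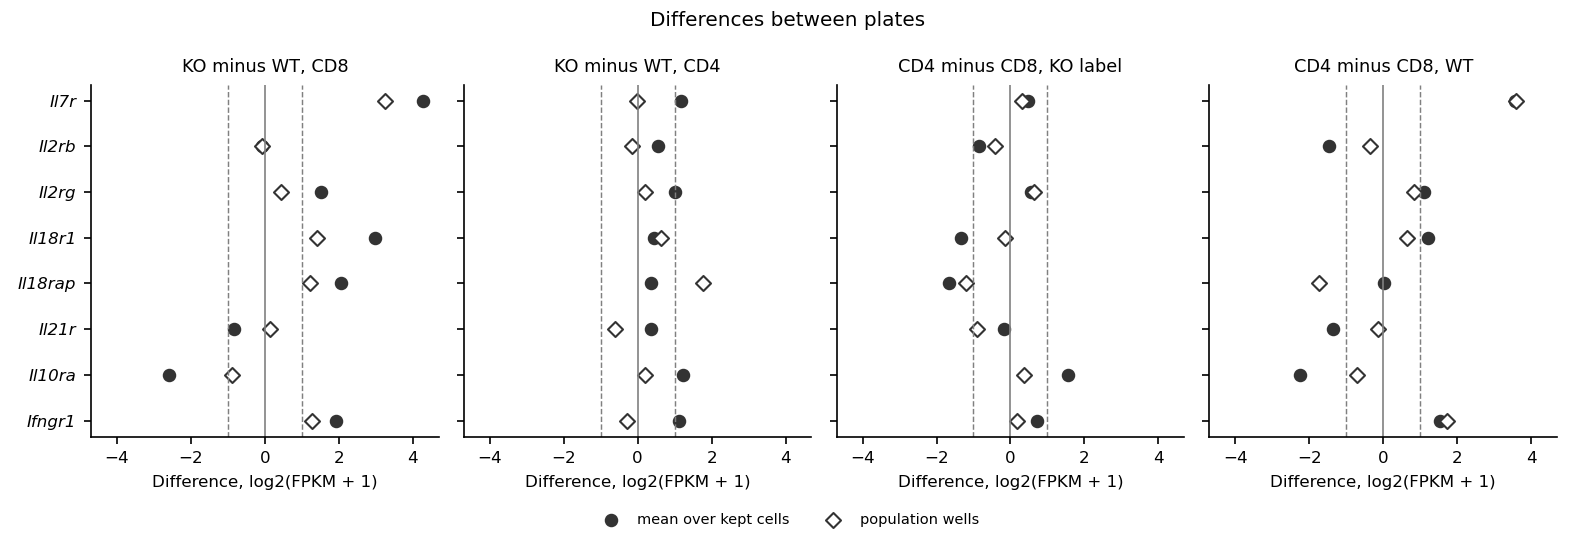
Difference of each chain on the log2(FPKM + 1) scale in the 4 comparisons, as means over kept cells (filled) and between population wells (open diamonds), with dashed lines at -1 and 1. In CD8 the cells put Il7r at 4.27 and Il10ra at -2.59 (KO-labelled minus WT), while between the labels in CD4 the wells keep 7 of the 8 chains within 1.

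In CD8 cells, Il7r was more frequent where Tcf7 was detected. Under the KO label, 42 of 48 Tcf7-detected cells carried Il7r (87.5%, 74.8 to 95.3%) against 12 of 32 undetected cells (37.5%, 21.1 to 56.3%). In WT, 9 of 11 Tcf7-detected cells carried it (81.8%, 48.2 to 97.7%) against 1 of 61 undetected cells (1.64%, 0.0415 to 8.80%). Both plates had the higher share among Tcf7-detected cells with intervals apart, although detected cells had no more genes (medians of 2495 against 2565 under the KO label, and 2434 against 3438 in WT). With cells matched on genes detected, the shares were 77.3% against 40.9% under the KO label (22 cells each) and 88.9% against 0% in WT (9 cells each, which allows up to 33.3%). Across cells the Spearman correlation of Il7r and Tcf7 was 0.51 over 80 KO-labelled and 0.72 over 72 WT cells, as a description.

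The share of Tcf7-detected cells itself was 60% of KO-labelled against 15.3% of WT CD8 cells, a difference in the same direction as that of Il7r. Set side by side within each class, Tcf7-detected CD8 cells had Il7r in 87.5% under the KO label and 81.8% in WT, with intervals that overlapped. Tcf7-undetected CD8 cells had it in 37.5% under the KO label and 1.64% in WT, with intervals apart. The undetected cells of the plates also differed in PD-1 status: with Pdcd1 detected, Il7r was found in 5 of 17 KO-labelled cells (29.4%, 10.3 to 55.96%) and in 0 of 47 WT cells, which allows up to 6.38%. The 14 WT cells with neither marker had a median of 1141 genes, and 1 of them carried Il7r.

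In CD4 cells, under the KO label 16 of 17 Tcf7-detected cells carried Il7r (94.1%, 71.3 to 99.9%) against 37 of 56 undetected cells (66.1%, 52.2 to 78.2%). In WT it was 22 of 33 (66.7%) against 26 of 46 (56.5%). The intervals overlapped on both plates, and the correlations were 0.26 and 0.05 over 73 and 79 cells. Among Foxp3-undetected CD4 cells, a subset chosen after the data were seen, Il7r was found in 12 of 12 Tcf7-detected against 11 of 19 undetected cells under the KO label (57.9%), and in 22 of 33 against 10 of 19 cells in WT (52.6%). The lineages were not compared by a test. Over all kept cells the Il7r share was higher among Tcf7-detected cells on all 4 plates, by between 10.1 and 80.2 percentage points.

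Against Pdcd1, Il7r was less frequent in CD8 cells that carried it. Under the KO label 13 of 26 Pdcd1-detected cells had Il7r (50%, 29.9 to 70.1%) against 41 of 54 undetected cells (75.9%, 62.4 to 86.5%), and in WT 2 of 50 (4%, 0.488 to 13.7%) against 8 of 22 (36.4%, 17.2 to 59.3%). Only the WT intervals lay apart. Within Tcf7-detected cells, Il7r was in 8 of 9 Pdcd1-detected against 34 of 39 undetected cells under the KO label. In WT it was in 2 of 3 against 7 of 8. Within Tcf7-undetected cells it was in 5 of 17 against 7 of 15 under the KO label. In WT these counts were 0 of 47 (which allows up to 6.38%) against 1 of 14. The intervals overlapped within each Tcf7 class on both plates, and several classes are small. In CD4 cells the shares by Pdcd1 were 65.2% against 76% under the KO label and 60% against 61.1% in WT, which differ by less than their counting error. By level, the CD4 medians of Il7r were 29.6 against 285.7 FPKM under the KO label and 113.6 against 28.04 FPKM in WT. The Spearman correlations of Il7r and Pdcd1 were -0.27 in KO-labelled CD4 and 0.06 in WT CD4. They were -0.28 in KO-labelled CD8 and -0.31 in WT CD8. Pdcd1 itself was found in 32.5% of KO-labelled against 69.4% of WT CD8 cells, while in CD4 the shares were 31.5% under the KO label and 31.6% in WT.

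Il18r1 showed no such pattern. With Tcf7 detected it was found in 12 of 17 KO-labelled CD4 cells against 26 of 56 without, and in 6 of 11 WT CD8 cells against 21 of 61. The order was the other way in WT CD4, with 12 of 33 against 24 of 46 cells, and in KO-labelled CD8, with 34 of 48 against 24 of 32 cells. By Pdcd1 the shares were 39.1% against 58% in KO-labelled CD4, 48% against 44.4% in WT CD4, 69.2% against 74.1% in KO-labelled CD8 and 34% against 45.5% in WT CD8. The intervals overlapped in all 8 of these comparisons. Between the CD8 plates, Il18r1 was found in 75% of KO-labelled against 34.4% of WT cells without Tcf7, with intervals of 56.6 to 88.5% and 22.7 to 47.7% that lay apart.

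**Figure D4:**
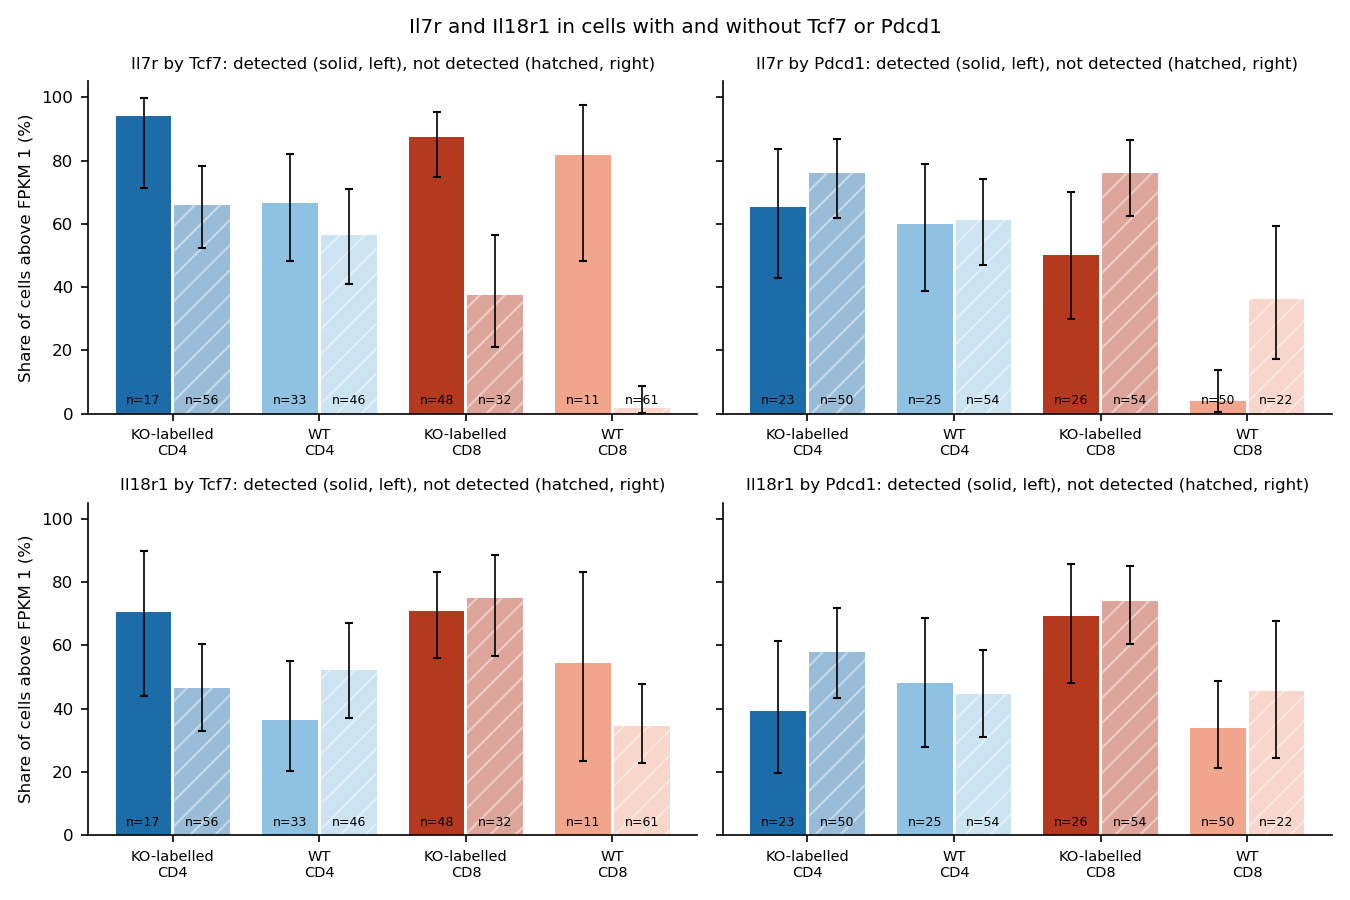
Share of cells with Il7r (top) or Il18r1 (bottom) among cells with Tcf7 or Pdcd1 detected (solid, left) and not detected (hatched, right) on each plate, with exact 95% intervals and the number of cells. Il7r stands at 87.5% against 37.5% by Tcf7 in KO-labelled CD8 and at 81.8% against 1.64% in WT CD8, while the paired bars of Il18r1 overlap within their intervals.

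Of the other chains, Il10ra ran the opposite way to Il7r. It was less frequent in Tcf7-detected cells on all 4 plates, at 29.4% against 48.2% in KO-labelled CD4, 9.09% against 43.5% in WT CD4, 25% against 37.5% in KO-labelled CD8 and 27.3% against 67.2% in WT CD8 cells. The intervals lay apart only in WT CD4, and there all 33 Tcf7-detected cells were Foxp3-undetected. Among Foxp3-undetected WT CD4 cells the shares were 9.09% (1.92 to 24.3%) against 26.3% (9.15 to 51.2%), which overlap. By Pdcd1, Il10ra was found in 13 of 26 detected (50%) against 11 of 54 undetected KO-labelled CD8 cells (20.4%), and in 40 of 50 (80%, 66.3 to 89.97%) against 4 of 22 WT CD8 cells (18.2%, 5.19 to 40.3%). Pdcd1-detected CD8 cells also had more genes, with medians of 3343 against 2389.5 under the KO label and 4039 against 2155 in WT. In cells matched on genes detected the shares were 33.3% against 16.7% under the KO label, over 12 cells each, and 66.7% against 22.2% in WT, over 9 cells each. In CD4 cells Il10ra was about level between the Pdcd1 classes, at 43.5% against 44% under the KO label and 36% against 25.9% in WT.

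In CD4 cells Il2rb was less frequent with Tcf7 detected, at 12 of 17 (70.6%) against 52 of 56 (92.9%) under the KO label and 20 of 33 (60.6%) against 42 of 46 (91.3%) in WT, and the WT intervals lay apart. Among Foxp3-undetected WT CD4 cells the shares were 60.6% (42.1 to 77.1%) against 78.9% (54.4 to 93.9%), which overlap. In CD8 cells Il2rb was found in 97.9% against 84.4% under the KO label and 90.9% against 83.6% in WT, with intervals that overlapped. In cells with at least 2000 genes these shares were 97.7% against 95.7% and 90.9% against 97.9%, so the WT order turned. Ifngr1 was detected in all 48 Tcf7-detected KO-labelled CD8 cells and all 11 in WT, against 87.5% and 81.97% of undetected cells. Its median level in these classes was 1862 against 436 FPKM under the KO label and 2303 against 546 FPKM in WT. In CD4 cells the Ifngr1 medians ran the other way, at 1043 against 2225 FPKM under the KO label and 1499 against 2190 FPKM in WT. Spearman correlations of Ifngr1 and Tcf7 were -0.10 and -0.29 in KO-labelled and WT CD4, and 0.49 and 0.40 in KO-labelled and WT CD8. The CD4 shares were 100% against 92.9% under the KO label and 87.9% against 84.8% in WT. Il18rap was found in 20 of 26 Pdcd1-detected against 26 of 54 undetected KO-labelled CD8 cells, and in cells matched on genes detected in 66.7% against 58.3%. In WT CD8 it was found in 14 of 50 against 6 of 22 cells, and whether the labels differ in this was not tested.

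**Figure D5:**
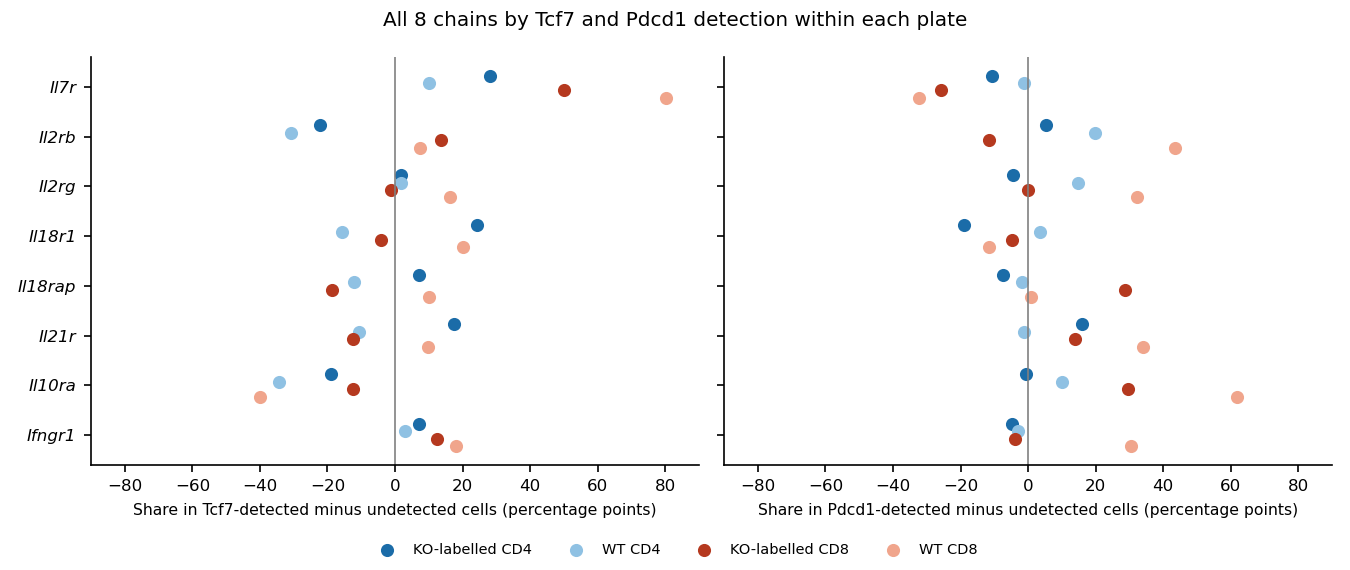
Share of cells carrying each chain among marker-detected minus undetected cells, in percentage points, for Tcf7 (left) and Pdcd1 (right), with 1 point per plate. Il7r lies right of 0 for Tcf7 on all 4 plates (10.1 to 80.2 points) and Il10ra left of it, while 5 of the WT CD8 points for Pdcd1 lie between 30.4 and 61.8 points, where detected cells also had a median of 4039 against 2155 genes.

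CD4 cells in tumours include regulatory T cells, marked by Foxp3, which was detected in 57.5% of KO-labelled against 34.2% of WT CD4 cells. Il21r was found in 80.95% of Foxp3-detected against 38.7% of undetected KO-labelled cells, and in 77.8% against 51.9% of WT cells. Il10ra was found in 50% against 35.5% under the KO label and in 55.6% (35.3 to 74.5%) against 15.4% (6.88 to 28.1%) in WT. Il2rb reached 27 of 27 Foxp3-detected WT cells, against 35 of 52 undetected cells. Il7r was about equal, at 71.4% against 74.2% under the KO label and 59.3% against 61.5% in WT. Il18r1 was less frequent in Foxp3-detected KO-labelled cells, at 15 of 42 (35.7%, 21.6 to 51.97%) against 23 of 31 (74.2%, 55.4 to 88.1%), but at 13 of 27 against 23 of 52 in WT. Foxp3-undetected CD4 cells were compared between the labels after the data were seen. In them 7 of the 8 chains were at least 1 higher in KO-labelled than in WT cells, with Il18r1 at 1.85. The share of all genes past 1 is not given for this subset, so the count has no background. Its KO-labelled cells also had more genes, with medians of 2123 against 1891. The part of the Foxp3 share in the CD4 differences was not tested further.

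A receptor needs all its chains, but shares of cells with RNA of each chain detected do not show that a receptor was present or absent. Il7r and Il2rg were found together in 72.6% of KO-labelled CD4, 54.4% of WT CD4, 65% of KO-labelled CD8 and 12.5% of WT CD8 cells. Il7r and Il18r1 were found together in 42.5%, 29.1%, 51.25% and 6.94% of the same plates, and neither in 17.8%, 22.8%, 11.25% and 55.6%. Il2ra, the alpha chain that gives the interleukin-2 receptor its high affinity, joined Il2rb and Il2rg in 63.01% of KO-labelled against 31.6% of WT CD4 cells, and in 23.75% of KO-labelled against 6.94% of WT CD8 cells. Ifngr2, the signalling partner of Ifngr1, was the scarcer chain: the pair was found in 24.7%, 26.6%, 22.5% and 8.33% of cells, although Ifngr1, with or without Ifngr2, was detected in 84.7% or more. The mean log2(FPKM + 1) of Ifngr2 was 0.62 in both KO-labelled and WT CD8 cells. Its wells held 85.42, 27.54, 21.73 and 47.9 FPKM in the same plates, so the CD8 order of the pair was not that of the wells. Il10ra and its partner Il10rb were found together in 13.7%, 13.9%, 15% and 33.3%. At least 6 of the 8 chains were detected in 56.2% of KO-labelled against 36.7% of WT CD4 cells, and in 61.25% of KO-labelled against 31.9% of WT CD8 cells. The mean number of chains was 5.48 against 4.76 in CD4 and 5.79 against 4.69 in CD8. In cells with at least 2000 genes it was 5.58 against 5.20 in CD4 and 5.98 against 5.32 in CD8. The part of depth in these gaps was not tested.

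Of the 7 partner chains (Il2ra, Il15ra, Il9r, Il4ra, Crlf2, Il10rb and Ifngr2), 6 could be compared in CD8 cells and 5 in CD4 cells. In CD8 cells Il4ra, the interleukin-4 receptor alpha chain, was 1.27 higher under the KO label (-0.47 in the wells) and Crlf2, which pairs with Il7r in the receptor for thymic stromal lymphopoietin, was lower (-1.04). In CD4 cells Il2ra was 2.34 higher, Crlf2 1.17 and Il4ra 1.02 under the KO label, with 0.59, 1.45 and 0.30 in the wells.

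Genes that these receptors are known to induce were described as a list of 15. Between KO-labelled and WT CD8 cells, 5 of the 12 compared were at least 1 higher and 1 lower, beside 3.00% of 6599 genes higher and 19.5% lower. Bcl2, a survival gene induced by interleukin-7, was 2.76 higher (2.82 in the wells), the signalling inhibitors Socs3 and Socs1 were 2.08 and 1.84 higher, the kinase Pim2 was 1.43 higher and the interferon-induced GTPase Irgm1 was 1.28 higher. Mcl1, another survival gene, was lower (-1.21, with 0.03 in the wells). In CD4 cells 9 of 13 were at least 1 higher under the KO label and 0 lower, beside 8.75% of 4687 genes higher and 1.51% lower. The interleukin-2 feedback inhibitor Cish was 3.78 higher, Socs1 2.21, the interferon-induced Igtp 1.94, Gbp2 1.72, Irf1 1.42 and Irgm1 1.35, and Pim1, Socs2 and Myc were 1.49, 1.30 and 1.19 higher, with Myc at -1.42 in the wells. In the CD8 wells Pim2, Socs1, Socs3 and Irgm1 were 1.31, 1.06, 0.67 and 0.34 higher. In the CD4 wells Gbp2, Socs1, Cish and Irf1 were 2.25, 2.08, 1.23 and 1.22 higher. Igtp, Irgm1, Socs2 and Pim1 were 0.95, 0.77, 0.60 and 0.45 higher there. The medians of the list were 0.73 in CD8 and 1.35 in CD4 cells, and 1.03 and 0.70 in the wells.

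The all-gene shares given for the target genes apply to the next lists too. The JAK and STAT list had fewer genes past 1. Of its 10 genes, all of which could be compared, Stat4, which interleukin-12 activates, was 1.18 higher and the kinase Tyk2 lower (-1.64) in KO-labelled than in WT CD8 cells, and 0 were past 1 in CD4 cells. Of 12 genes of interleukin-18 signalling, 0 of the 9 compared in CD8 and 0 of the 7 compared in CD4 cells were past 1. Of 24 other interleukin and interferon receptor chains, 0 of the 8 compared in CD8 cells and 1 of the 10 compared in CD4 cells, Il1rl1, were past 1. Of 9 ligands, only Ifng could be compared in CD8 cells (0.02, with 2.36 in the wells). In CD4 cells only Il10 could be compared (0.31, with -0.52 in the wells). Of 7 genes known to regulate Il7r, Tcf7 was 3.35 higher in KO-labelled CD8 cells and lower in KO-labelled CD4 cells (-1.75), the only one past 1 in either lineage. The CD4 difference of Tcf7 thus ran against that of Il7r, which was 1.16.

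Between CD4 and CD8 cells, 8 of 14 compared target genes were at least 1 higher and 2 lower under the KO label, and 3 of 13 higher and 2 lower in WT. Of all genes compared, 4.63% were higher and 11.1% lower under the KO label, and 2.16% were higher in WT. Under the KO label the interferon-induced Igtp and Gbp2 were 3.24 and 2.49 higher in CD4, Cish 3.54, Socs2 2.45, Irf1 1.97, Irgm1 1.57, Pim1 1.38 and Bcl2l1 1.36, while Bcl2 (-3.17) and Pim2 (-2.42) were lower. In WT, Igtp, Socs3 and Irgm1 were 1.98, 1.599 and 1.49 higher in CD4, and Myc (-1.93) and Pim2 (-1.02) lower. For lower values in WT the background is the 37.2% of all genes at least 1 lower there, with an all-gene median of -0.76. Stat4 was lower in CD4 under the KO label (-1.97 in cells, and 156.6 against 314.4 FPKM in the wells), and in WT it had -1.01 in cells and 0.25 in the wells. Stat5b was 1.69 higher under the KO label, where Jak1 (-1.13) and Stat3 (-1.14) were lower, and Tyk2 had -1.07 in WT cells and 99.64 against 99.6 FPKM in the wells. Among partner chains Il2ra was 3.41 higher under the KO label and 1.34 in WT, and Crlf2 was 1.21 higher under the KO label and lower in WT (-1.01). Ifng was lower in CD4 on both (-2.05 under the KO label and -1.80 in WT) and Il10 was 1.56 higher under the KO label. Of the interleukin-18 signalling genes, 3 of the 9 compared in WT were at least 1 lower, a share near that background: Irak2, Irak4 and Traf6, at -1.09, -1.09 and -1.04 in cells and at 0.75, -0.82 and 0.20 in the wells. Of other receptor chains, Il1rl1 and Il12rb1 were 1.52 and 1.08 higher and Il12rb2 lower (-1.33) under the KO label, and in WT Il6ra was 1.09 higher and Il27ra had -1.22 in cells and 0.63 in the wells. Tcf7 was lower in CD4 under the KO label (-2.94) and 2.16 higher in WT, where Ets1, an ETS factor, was 1.42 higher.

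The genes closest to Il7r across cells, by the mean over the plates of the Spearman correlation within each plate among 3341 genes found in at least 20% of cells of every plate, were S1pr1 (0.28), Tcp11l2 (0.26), Malat1 (0.26), Emb (0.25) and Gvin1 (0.25). S1pr1 encodes the receptor that guides T cells out of tissues, and its correlation was 0.01 in WT CD4 and 0.49 in WT CD8. For Il18r1 they were Il18rap (0.22), Nrp1 (0.20), Ms4a4b (0.19), Ms4a6c (0.19) and Emb (0.19). All these values are weak, cells of a plate share its depth and handling, and nothing is read from the order.

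Few single cells carried several markers of other cell types. At least 3 melanoma genes of 5 were found in 2.74% of KO-labelled CD4 and 4.17% of WT CD8 cells, against 0% of WT CD4 (which allows up to 3.797%) and KO-labelled CD8 cells (up to 3.75%). At least 3 macrophage and monocyte genes were found in 4.11%, 1.27% and 1.25% of KO-labelled CD4, WT CD4 and KO-labelled CD8 cells and in 0% of WT CD8 cells, which allows up to 4.17%. At least 3 dendritic cell markers were found in 1 of 80 KO-labelled CD8 cells and in 0 cells of the other plates, which allows up to 4.17%. B cell markers reached 3 in 0 cells of any plate. At least 3 of 5 markers of type 2 innate lymphoid cells, which also carry Il7r, Il2rg and Il18r1, were found in 21.9% of KO-labelled against 10.1% of WT CD4 cells, with summed levels of 0 to 8155 FPKM under the KO label and 0 to 4909.7 FPKM in WT, and all 5 markers were found on both plates. Areg and Il1rl1 of this list were 1.82 and 1.42 higher under the KO label, and Foxp3 was 1.95 higher in cells but lower in the wells (-0.26, 702 against 840.5 FPKM). Regulatory T cells share several of these markers, and their part in the CD4 differences was not tested.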

How the data were processed

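The authors deposited a matrix of FPKM per gene and library, already scaled between libraries by TMM factors, for 94 single cells and 1 population well on each of 4 plates made by Smart-seq2. Bowtie, RSEM and the mm10 genome are named without versions, per the submitters' processing notes, and the gene annotation is not given in the sources used here. All 380 columns matched a title, and 0 pairs of libraries were identical. Low FPKM values were not multiples of a step worth 1 read (12.6% of 382719 lay within 0.05 of a whole number, where even spread gives 10%), so the depth in reads is unknown and genes detected stand for it. From these values were computed shares of cells above FPKM 1, means of log2(FPKM + 1) with a pseudocount of 1, their differences, Spearman correlations and exact intervals (Python 3.11.15, pandas 2.3.3, SciPy 1.17.1). Code was tested on simulated data. The genes, lists, filters and motifs were chosen with earlier results of these data known. Named genes are the 8 chains, their partner chains, list members with a difference of at least 1 and the 5 genes most like Il7r and Il18r1. Alternatives covered the cell filter, detection level, pseudocount, matching on genes detected, rescaling, mean FPKM, cycling cells and wells. With 1 plate per group, no test was run.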

Additional observations from a re-analysis of the deposited data

Results flagged for a closer look

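Il10ra was singled out because its difference between KO-labelled and WT cells had opposite signs in the lineages: -2.59 in CD8 cells and 1.21 in CD4 cells on the log2(FPKM + 1) scale. The wells had the same signs, at -0.89 in CD8 and 0.19 in CD4. Over the alternative settings the difference of Il10ra ran between -3.68 and -0.89 in CD8 and between 0.19 and 1.76 in CD4. Detection was 30% of KO-labelled against 61.1% of WT CD8 cells, and 43.8% of KO-labelled against 29.1% of WT CD4 cells. Opposite signs were not particular to Il10ra. Il21r (-0.83 in CD8 and 0.36 in CD4 cells) and Il2rb (-0.07 and 0.55) had them too, with neither past 1. The difference between the lineages was not tested, since each group is 1 plate.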

How the results depend on the processing

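Counts of chains at least 1 higher or lower depended on the setting. The share of all genes past 1 is given above for the main setting only. Between KO-labelled and WT CD8 cells, 5 higher became 3 in cells with at least 2000 genes and with the log2 of mean FPKM, and 1 lower became 2 with a pseudocount of 0.1, with at least 2000 genes or with matched cells, and 0 in the wells. Between KO-labelled and WT CD4 cells, 4 higher became 0 with all 94 cells, with at least 2000 genes or with the log2 of mean FPKM, 1 with matched cells or in the wells, and 7 in Foxp3-undetected cells, an alternative chosen after seeing the data. In the wells Il7r (-0.026) and Ifngr1 (-0.30) reversed there. Between CD4 and CD8 under the KO label, 1 higher became 2 with matched cells and 0 in the wells, and 2 lower became 1 with the log2 of mean FPKM and in the wells. In WT, 4 higher became 2 with at least 2000 genes and in the wells, and 3 lower became 1 with all 94 cells, without cycling cells or in the wells, and 0 without cells above 4000 genes or with the log2 of mean FPKM.

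Il7r was more frequent in Tcf7-detected cells on 4 of 4 plates under every alternative run. By Pdcd1 the count of plates with more Il7r was 0 and became 2 with all 94 cells (0.58 points in KO-labelled CD4 and 10.7 in WT CD4) and 1 with matched cells (21.1 points in WT CD4). For Il18r1 by Tcf7, KO-labelled CD8 reversed above FPKM 10 (3.22 points) and with all 94 cells (14.3). For Il18r1 by Pdcd1, the count of 1 plate became 0 above FPKM 10 (WT CD4 at -1.56 points) and with matched cells, 3 with all 94 cells (KO-labelled CD8 at 7.47 and WT CD8 at 7.75) and 2 without cycling cells (WT CD8 at 2.16). With at least 2000 genes WT CD4 was at -6.15 and KO-labelled CD8 at 2.86. The causes were not tested.

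The difference of Il7r between KO-labelled and WT CD8 cells ran between 3.07 and 6.01 over the alternatives, that of Il18r1 between 1.41 and 3.94, that of Il18rap between 1.23 and 3.04 and that of Il10ra between -3.68 and -0.89. Of the values of single chains under alternatives, 48 no longer reached 1, 11 newly reached it, 2 moved and 13 reversed, and the others kept their direction and side of 1. No paired analysis was possible. The titles' code 4 is on all plates and p1 on all but WT CD4, so either gives at most 1 pair in a comparison. No result comes from a test.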

Other observations

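The 29 cycling WT CD8 cells, with at least 4 of 8 cell cycle genes, are set beside the 43 other WT CD8 cells. Il7r was found in 0 of 29 cycling cells (0 to 11.9%; the share that 3 cells would make is 10.3%) against 10 of 43 others (23.3%, 11.8 to 38.6%), and the intervals just overlap. Il18r1 was found in 7 of 29 (24.1%, 10.3 to 43.5%) against 20 of 43 (46.5%, 31.2 to 62.3%), which also overlap. Il10ra was found in 26 of 29 (89.7%, 72.6 to 97.8%) against 18 of 43 (41.9%, 27.01 to 57.9%), and Il2rb and Il2rg in all 29 cycling cells. Cycling cells had a median of 4594 genes against 2425, and the part of that gap in these shares was not tested.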
